A study of Mus musculus with 8 samples.

Results

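Histone H3 lysine 27 can be trimethylated by Ezh2, the catalytic subunit of polycomb repressive complex 2 (PRC2), which keeps genes silent, or acetylated, which marks active enhancers and promoters. The 8 genes described here belong to active chromatin or are used to report on it. They include the BET bromodomain proteins Brd2 and Brd3, the acetyltransferases Ep300 and Crebbp and the H3K27 demethylase Kdm6b. The others are the trithorax-type H3K4 methyltransferases Kmt2a and Kmt2d, and Hexim1, an inhibitor of transcription elongation whose RNA is used as a readout of BET inhibitors. The list was set by name and its rule used no measured value, but it was chosen with earlier results of these data known. A gene was read from the brightest of its probes, and 7 of the 8 matched a probe. No probe matched Kmt2a by its RefSeq name, so it was not analysed here. The 7 measured genes were well above background on all 8 arrays and were among 13183 genes tested.

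Gene expression was measured on 8 one-colour Agilent mouse arrays, 1 for each of 4 genotypes in 2 sorted marrow fractions, so no group had a replicate. LSK cells, which lack lineage markers and carry Sca-1 and c-Kit, include the haematopoietic stem cells. MEP give rise to megakaryocytes and red cells. Donor marrow on the C57BL/6 background carried Cre-ERT2, a Cre recombinase that acts once its ligand is given, in every group, the wild-type group (WT) included. The donors of the other groups carried in addition Ezh2 flox/flox, which gave the Ezh2-deleted cells (Ezh2Δ/Δ), JAK2V617F, the activated kinase of myeloproliferative neoplasms, or both, which gave the double mutant (JAK2V617F/Ezh2Δ/Δ). The marrow was placed in lethally irradiated CD45.1+ wild-type recipients, Ezh2 was deleted after 4 weeks, and cells were sorted at 2 months. The promoter that drives JAK2V617F, the ages of the mice, the agent that was given to start the deletion and whether mice were pooled are not given in the sources used here.

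The sorted fractions carried their own markers. The summed level of 8 LSK markers, on the linear scale relative to the 75th percentile of each array, was 251 to 380 on the LSK arrays and 19.8 to 37.0 on the MEP arrays, and that of 8 MEP markers was 41.7 to 54.3 and 423 to 812. Xist read 1.39 to 2.85 on the Ezh2-deleted arrays and -5.47 to -3.24 on the others on the log2 scale, while the Y-linked Eif2s3y ran the other way, so each difference with Ezh2 deletion is also one between marrow of both sexes. The Ezh2 probe itself read 3.33, 3.20, 3.65 and 3.41 in WT, Ezh2-deleted, JAK2V617F and double mutant LSK cells and 3.96, 3.86, 4.04 and 3.43 in the MEP of the same genotypes. Its log2 difference with deletion was -0.27 (SE 0.17, adjusted p = 0.409), and where the probe lies relative to the deleted exons is not given, so it does not check the deletion. The Jak2 probe, which cannot tell the mutant from the normal allele, differed by -0.30 with JAK2V617F (SE 0.17, adjusted p = 0.573). All arrays lay on 1 slide with each cell type in a row and each genotype in a column, and position and group cannot be told apart. Arrays of one fraction correlated at 0.961 to 0.981 over the genes tested.

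Bromodomain readers bind acetylated lysines on histones and hold the elongation machinery at active genes. The acetyltransferases Ep300 and Crebbp write H3K27 acetylation, Kdm6b removes the methyl groups that block it, and Kmt2d methylates H3K4 at enhancers. In blood-forming cells these proteins are known as regulators of stem cell and lineage genes, and several are targets of inhibitors tested in myeloid neoplasms.

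The promoters of Brd3 and Hexim1 are shown because these were the genes whose 4 arrays of one genotype state did not overlap the other 4. The letters run from 250 bases upstream of the RefSeq start to the base before it, on the strand of the gene, with each CpG in capitals, in assembly GRCm38.p6. The Brd3 window is chr2:27475399-27475648 on the minus strand and the Hexim1 window is chr11:103116075-103116324 on the plus strand.
Brd3: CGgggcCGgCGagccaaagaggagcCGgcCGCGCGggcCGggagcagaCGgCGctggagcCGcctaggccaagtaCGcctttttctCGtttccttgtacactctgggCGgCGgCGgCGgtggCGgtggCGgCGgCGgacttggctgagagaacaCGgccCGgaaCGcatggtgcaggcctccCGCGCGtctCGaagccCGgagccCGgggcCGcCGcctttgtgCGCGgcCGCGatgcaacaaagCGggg
Hexim1: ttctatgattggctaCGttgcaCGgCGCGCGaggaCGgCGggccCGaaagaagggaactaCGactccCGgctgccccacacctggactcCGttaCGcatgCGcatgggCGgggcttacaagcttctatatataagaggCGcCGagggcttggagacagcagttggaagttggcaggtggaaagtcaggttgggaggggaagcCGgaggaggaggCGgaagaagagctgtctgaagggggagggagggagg
The Brd3 window held 37 CpG, more than 97.8% of 32841 promoter windows of the same length, whose median was 6. The Hexim1 window held 18 CpG, more than 78.3% of them. RefSeq promoters were found for 7 of the 8 genes, 9 windows in all, and Kdm6b had no entry. The Crebbp window was the richest in CpG with 44, ahead of 99.5% of all windows, while the 3 Brd2 windows held 12, 18 and 27. The STAT-type motif TTCNNNGAA, which reads the same on both strands, was present in 7.02% of all windows. It was found once in the Kmt2d window and once in 1 Brd2 window, and these letters were not in the Brd3 or Hexim1 windows.

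No member passed an adjusted p of 0.05 for a genotype or between the cell types. With Ezh2 deletion 0 of 7 members passed, against 0.705% of all genes (93, of which 87 were higher and 6 lower). With JAK2V617F 0 of 7 passed, against 0.311% of all genes (27 higher and 14 lower). Between MEP and LSK cells 0 of 7 passed, where 41% of all genes did. The fit was limma's, over all 13183 genes with Benjamini-Hochberg adjustment, and at an unadjusted p under 0.05 it gave 2388 genes for Ezh2 deletion, 1452 for JAK2V617F and 6756 between the cell types. Of the members, 1 had such a p with Ezh2 deletion (Brd3), 1 with JAK2V617F (Hexim1) and 0 between the cell types. The member values are therefore descriptions of 8 arrays, to be read beside the median of all genes: -0.10 with Ezh2 deletion, 0.01 with JAK2V617F and 0.12 for MEP against LSK on the log2 scale.

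**Figure D1:**
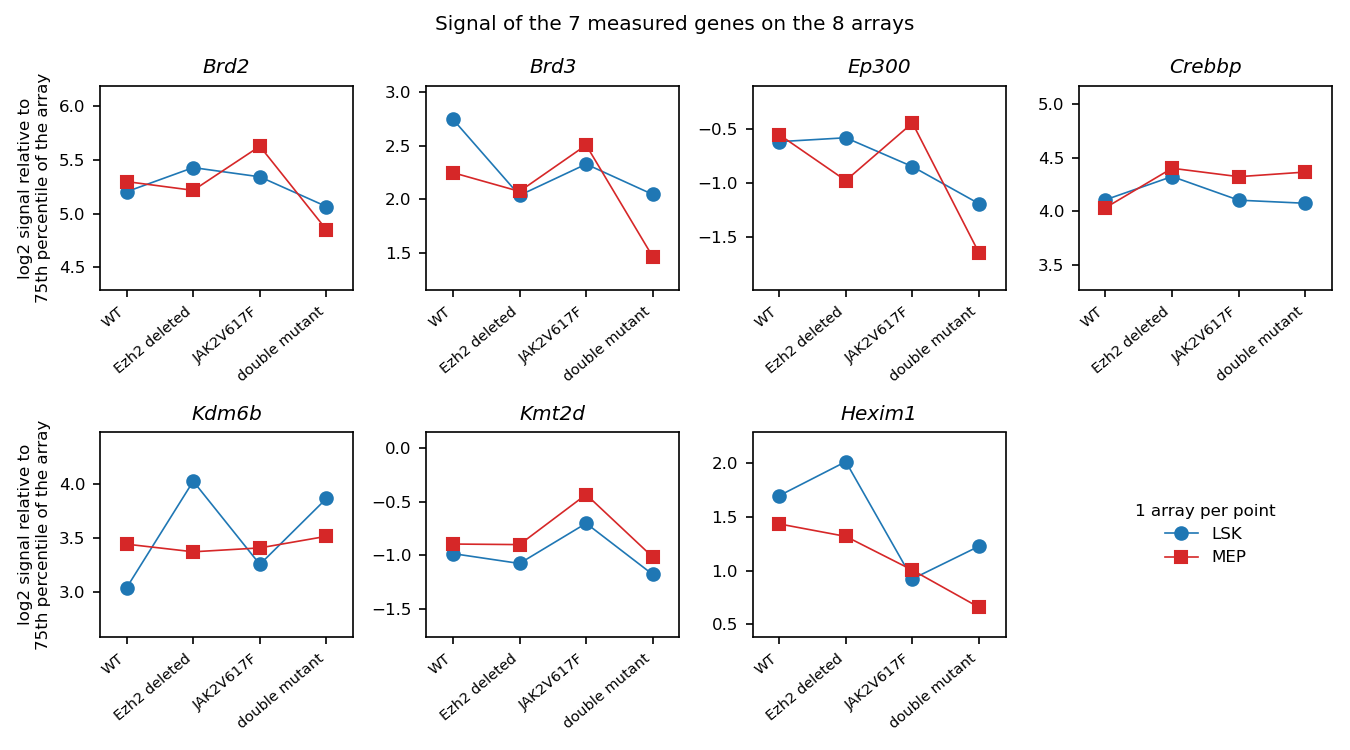
Level of each measured gene (y axis, log2 over the 75th percentile of its array, the same span in each panel but a different origin) by genotype (x axis), with circles for LSK and squares for MEP, 1 array per point. Brd3 is lowest at 1.46 in double mutant MEP, Kdm6b is highest at 4.03 in Ezh2-deleted LSK cells, and Hexim1 lies lower on the arrays with JAK2V617F.

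A level is the log2 ratio of a signal to the 75th percentile of its array, and it is compared between arrays for 1 probe, never between probes. Brd2, a BET protein that binds acetylated histone H4, read 5.20, 5.43, 5.34 and 5.06 in WT, Ezh2-deleted, JAK2V617F and double mutant LSK cells. In MEP of the same genotypes it read 5.30, 5.22, 5.63 and 4.85. Double mutant MEP had the lowest value and JAK2V617F MEP the highest, and the arrays with and without Ezh2 overlapped. The Ezh2 difference was -0.23 (SE 0.19, adjusted p = 0.510) and the JAK2V617F difference -0.07 (SE 0.19, adjusted p = 0.909). The second Brd2 probe gave an Ezh2 difference of -0.13 and a JAK2V617F difference of 0.25, so the direction with JAK2V617F was not shared by the probes. Between the cell types Brd2 differed by -0.01 (SE 0.19), also with the direction of the second probe opposite at 0.11.

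Brd3, the BET protein known for binding acetylated GATA1 in erythroid cells, read 2.74, 2.04, 2.33 and 2.04 in WT, Ezh2-deleted, JAK2V617F and double mutant LSK cells. In MEP it read 2.25, 2.07, 2.50 and 1.46 in the same order. Each of the 4 Ezh2-deleted arrays was below each of the 4 arrays with intact Ezh2, a separation that 5.17% of all genes showed in either direction. Of the 7 members Brd3 was the only one so separated by Ezh2. The log2 difference was -0.55 (95% interval -0.98 to -0.13, SE 0.18, adjusted p = 0.228), a 1.47-fold lower signal, and 4.73% of the genes had a more negative difference. By matched pair it was -0.71 in LSK cells with normal JAK2, -0.28 in LSK cells with JAK2V617F, -0.17 in MEP with normal JAK2 and -1.04 in MEP with JAK2V617F. The size varied among the pairs, and the pair with the double mutant MEP array was the farthest apart.

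The 2 other Brd3 probes read the same direction in all 4 pairs, with Ezh2 differences of -0.62 (adjusted p = 0.212) and -0.62 (adjusted p = 0.215). The 3 probes lie in the same gene and were read on the same arrays, so they are repeat readings of 1 RNA and not further samples. Within the cell types the difference was -0.50 in LSK cells (SE 0.28, adjusted p = 0.661) and -0.61 in MEP (SE 0.28, adjusted p = 0.403). Leaving out 1 array at a time gave -0.65 to -0.43 for the overall difference, with -0.43 both without the JAK2V617F and without the double mutant MEP array. With JAK2V617F the Brd3 difference was -0.19 (SE 0.18, adjusted p = 0.713), with values of both signs among the pairs. MEP and LSK differed by -0.22 (SE 0.18, adjusted p = 0.370), with the direction opposite for 1 of the other probes at 0.05.

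**Figure D2:**
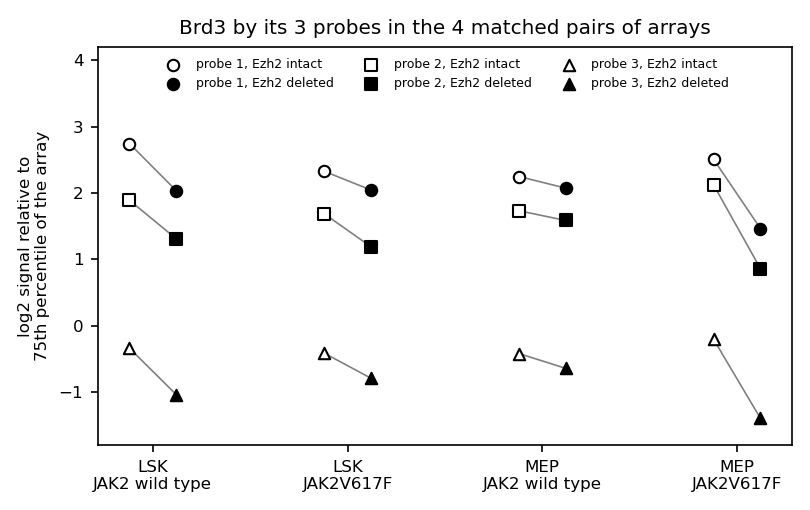
Level of the 3 Brd3 probes (y axis, log2 over the 75th percentile of the array) in the 4 matched pairs of arrays (x axis), with open symbols for intact and filled symbols for deleted Ezh2, joined by a line within a pair. In every pair each probe is lower on the deleted array, from -0.17 to -1.04 for the brightest probe, and heights are not to be compared between probes.

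The acetyltransferases of the CBP/p300 family differed from each other. Ep300 read -0.62, -0.58, -0.85 and -1.19 in WT, Ezh2-deleted, JAK2V617F and double mutant LSK cells. In MEP it read -0.55, -0.98, -0.44 and -1.65. The double mutant had the lowest Ep300 of its cell type in both fractions, and the arrays with and without Ezh2 overlapped through the Ezh2-deleted LSK array. The Ezh2 difference was -0.49 (95% interval -0.98 to 0.01, SE 0.21, adjusted p = 0.281). It was -0.15 within LSK cells (SE 0.27, adjusted p = 0.889) and -0.82 within MEP (SE 0.27, adjusted p = 0.335), and the difference between these was -0.66 (SE 0.38, adjusted p = 0.9996). In MEP the pair with normal JAK2 differed by -0.43 and the pair with JAK2V617F by -1.21. The overall Ezh2 difference of Ep300 was -0.32 without the double mutant MEP array and -0.29 without the JAK2V617F MEP array. With JAK2V617F Ep300 differed by -0.35 (SE 0.21, adjusted p = 0.590), and between MEP and LSK cells by -0.10 (SE 0.21).

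Crebbp, the close relative of Ep300, read 4.11, 4.32, 4.10 and 4.08 in WT, Ezh2-deleted, JAK2V617F and double mutant LSK cells. In MEP it read 4.03, 4.40, 4.32 and 4.37. The 4 arrays with and the 4 without Ezh2 overlapped, as did those with and without JAK2V617F. Within a fraction both Ezh2-deleted MEP arrays were above both others, as such arrays were apart in either direction for 46.5% of all genes. Both JAK2V617F LSK arrays were below both others, where 52.2% of all genes were apart. The nearest of these LSK values were 4.104 with JAK2V617F and 4.107 in WT. The Ezh2 difference was 0.15 (95% interval -0.20 to 0.50, adjusted p = 0.590), the JAK2V617F difference 0.00 (95% interval -0.35 to 0.35, adjusted p = 0.999) and that between MEP and LSK cells 0.13 (95% interval -0.22 to 0.48, adjusted p = 0.521). These intervals hold sizes up to 0.50, so a moderate difference was not excluded. Under quantile normalization the last 2 differences were -0.08 and -0.09, so they have no settled direction.

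Kdm6b, the demethylase that removes H3K27 trimethylation and is known as an inducible gene in myeloid cells, read 3.04, 4.03, 3.25 and 3.87 in WT, Ezh2-deleted, JAK2V617F and double mutant LSK cells. In MEP it read 3.44, 3.37, 3.41 and 3.51. Both Ezh2-deleted LSK arrays were above both other LSK arrays, while the 4 MEP values lay within a narrow range. Such a separation of 2 against 2 LSK arrays was seen in 3 of 7 members (Brd3, Kdm6b and Kmt2d) and in 35.5% of all genes. By the second Kmt2d probe the LSK arrays overlapped. The Ezh2 difference within LSK cells was 0.80 (95% interval 0.26 to 1.35, SE 0.22, adjusted p = 0.297), a 1.75-fold higher signal, where 0.0986% of all genes passed the threshold (13 genes, with 1249 at an unadjusted p under 0.05). It was 0.99 with normal JAK2 and 0.61 with JAK2V617F, and 93.6% of the genes had a lower value in that comparison.

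Within MEP the Kdm6b difference was 0.02 (SE 0.22, adjusted p = 0.975), with pairs of -0.07 and 0.11. In that comparison 0.592% of all genes passed (78 genes) and 0 of 7 members did, with 1698 genes and Ep300 alone of the members at an unadjusted p under 0.05. The difference between the cell types in the Kdm6b response was -0.78 (95% interval -1.55 to -0.02, SE 0.31, unadjusted p = 0.0462, adjusted p = 0.914). Only 0.00759% of all genes, 1 gene, passed in that comparison. Averaged over both fractions the Ezh2 difference of Kdm6b was 0.41 (SE 0.20, adjusted p = 0.313). It differed by 0.04 with JAK2V617F (SE 0.20, adjusted p = 0.947) and by -0.11 between MEP and LSK cells (SE 0.20).

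Markers of several cell types differed with Ezh2 deletion. The summed level of 7 B cell markers was 55.7 and 18.6 in Ezh2-deleted and double mutant LSK cells against 15.0 and 19.6 in WT and JAK2V617F LSK cells, and 43.1 and 6.07 against 2.27 and 2.82 in MEP. On the 4 arrays with intact Ezh2 only 2 of the 7 were well above background, with Cd79a, Ebf1, Pax5 and Vpreb3 among those not above it, and on the Ezh2-deleted arrays 3 to 6 were. Kdm6b was highest on the Ezh2-deleted LSK array, which also had the highest B cell sum, but was 3.87 on the double mutant LSK array, whose B cell sum was within the range of the LSK arrays with intact Ezh2. The summed level of the 8 MEP markers was 812 in WT and 633 in JAK2V617F MEP against 604 in Ezh2-deleted and 423 in double mutant MEP, and all 8 had a negative Ezh2 difference, with a median of -0.45 and 0 past the threshold. Of 5 tested B cell markers 5 were higher with Ezh2 deletion and 1 of them passed the threshold (Vpreb3, adjusted p = 0.0144). Of 4 tested markers of T and NK cells 1 rose with Ezh2 deletion (Gzma, adjusted p = 0.0235), while Nkg7 differed by -0.65 (adjusted p = 0.153). Of 4 tested monocyte markers 1 rose within MEP (F13a1, adjusted p = 0.0353), where 3 were higher and 1 lower. Within LSK cells all 4 were lower (median -1.17), F13a1 by -1.40, with 0 past the threshold. Of 7 granulocyte markers 6 were higher with Ezh2 deletion (median 0.26), with 0 past the threshold. Within LSK cells 5 of these were higher and 2 lower, Elane at -1.27 and Mpo at -1.07. The part of these cells in the differences of Kdm6b, Brd3 and Ep300 was not tested. In sorted bulk cells fewer cells of a type and less RNA per cell cannot be told apart.

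Kmt2d, the enhancer H3K4 methyltransferase, read -0.98, -1.08, -0.70 and -1.18 in WT, Ezh2-deleted, JAK2V617F and double mutant LSK cells. In MEP it read -0.90, -0.90, -0.43 and -1.02. JAK2V617F arrays had the highest values in both fractions, and with Ezh2 deleted as well the value was the lowest of each fraction. The Ezh2 difference was -0.29 (95% interval -0.66 to 0.08, SE 0.16, adjusted p = 0.352). By this brightest probe it was negative in 4 of 4 pairs, though only by -0.01 in the MEP pair with normal JAK2. A second probe, also well above background on all 8 arrays, gave -0.17, but not in every pair. With normal JAK2 it was higher after deletion, at -0.99 against -1.39 in LSK cells and -1.46 against -1.52 in MEP. With JAK2V617F it was lower in both fractions. The dimmest probe was well above background on the 4 LSK arrays and on no MEP array, so no Ezh2 or JAK2V617F difference over both fractions is read from it. With JAK2V617F the brightest probe differed by 0.13 (SE 0.16, adjusted p = 0.771) and the second probe by -0.26, so these had opposite directions. Between MEP and LSK cells it differed by 0.17 (SE 0.16, adjusted p = 0.410), higher in 4 of 4 pairs, and the second probe by 0.05 (SE 0.24). The mean of the dimmest probe was at least 1.146-fold higher in LSK cells, with the lowest signal well above background as the limit on each MEP array. This holds for the mean only, as the probe read -2.73 in WT LSK cells and -2.74 in WT MEP.

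**Figure D3:**
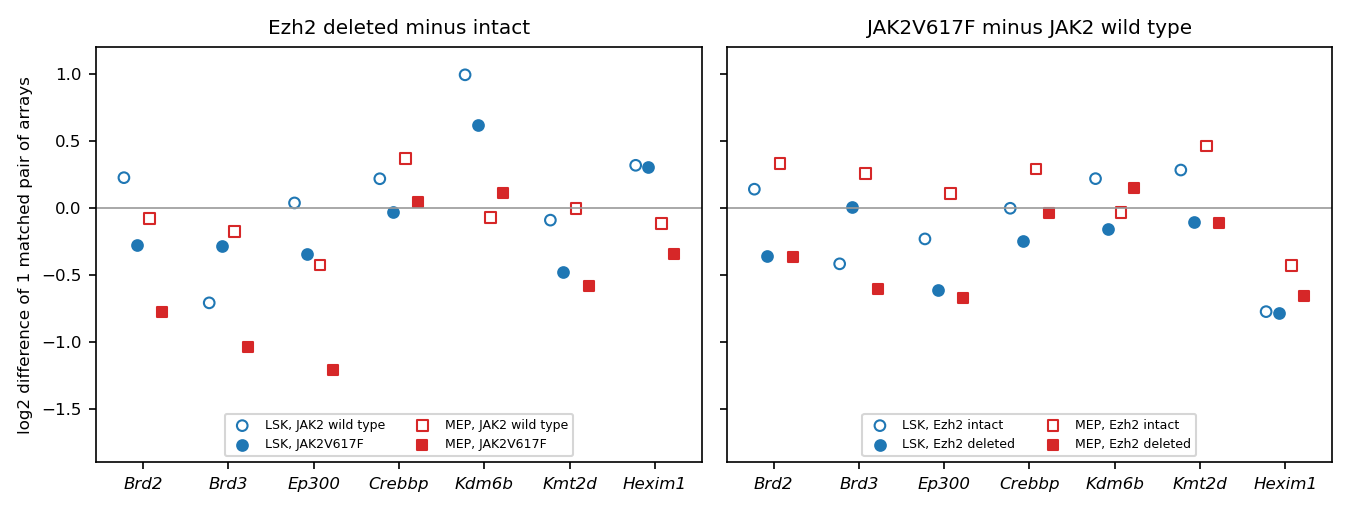
Log2 difference of each matched pair of arrays (y axis) for the 7 measured genes (x axis), with Ezh2 deletion on the left and JAK2V617F on the right. Circles are LSK and squares MEP pairs, and filled symbols are pairs that also carry the other mutation. Brd3 is negative in 4 of 4 Ezh2 pairs, Hexim1 in 4 of 4 JAK2V617F pairs, and Kdm6b reaches 0.99 and 0.61 in the LSK pairs with Ezh2 deletion.

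Hexim1 holds the elongation kinase P-TEFb in an inactive complex with 7SK RNA. It read 1.70, 2.01, 0.92 and 1.23 in WT, Ezh2-deleted, JAK2V617F and double mutant LSK cells. In MEP it read 1.43, 1.32, 1.00 and 0.66. All 4 JAK2V617F arrays were below all 4 arrays with normal JAK2, a separation seen in 1.91% of all genes and in no other member. The JAK2V617F difference was -0.66 (95% interval -1.07 to -0.26, SE 0.17, adjusted p = 0.238), a 1.58-fold lower signal, with the unadjusted p of 0.00553 at rank 307 of all genes. The 4 pairs gave -0.77 in LSK cells with intact Ezh2, -0.79 in LSK cells with Ezh2 deleted, -0.43 in MEP with intact Ezh2 and -0.66 in MEP with Ezh2 deleted. Leaving out 1 array at a time gave -0.79 to -0.56.

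Within LSK cells the Hexim1 difference with JAK2V617F was -0.78 (SE 0.20, adjusted p = 0.195), and 0.174% of all genes passed there (23 genes, with 2360 at an unadjusted p under 0.05). Within MEP it was -0.55 (SE 0.20, adjusted p = 0.583), and 0.159% of all genes passed (21 genes, with 1050 at an unadjusted p under 0.05). In both comparisons 0 of 7 members passed. Arrays with and without JAK2V617F were apart for Hexim1 in both fractions, as they were for 52.2% of all genes in LSK cells and 26.4% in MEP. The difference between the fractions was 0.24 (SE 0.29, adjusted p = 0.738). In that comparison limma called 0 of 13183 genes (0%), with 1521 at an unadjusted p under 0.05. Granulocyte markers were higher with JAK2V617F: their summed level over 7 genes was 1623 and 592 in JAK2V617F and double mutant LSK cells against 512 and 344 in WT and Ezh2-deleted LSK cells, and 145 and 263 against 20.2 and 41.3 in MEP. All 7 were well above background on every array except WT LSK, where Ngp and Ltf were not, and 4 of the 7 rose with JAK2V617F. Markers of other lists also differed with JAK2V617F within a fraction, with 0 past the threshold. Megakaryocyte markers were lower in MEP in 6 of 6 (median -1.73), with sums of 305 and 470 without and 119 and 109 with JAK2V617F. In LSK cells 7 of 8 LSK markers were lower (median -0.89) and 4 of 4 monocyte markers higher (median 1.61). Megakaryocyte markers ran the other way there, with 6 of 6 higher (median 0.67). Mast cell and basophil markers (4 of 4, median 0.86) and T and NK cell markers (4 of 4, median 0.63) were also higher in LSK cells. Of 5 tested B cell markers 5 were lower in MEP (median -1.98) and 4 in LSK cells (median -1.10). The part of these cells in the Hexim1 difference was not tested.

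With Ezh2 deletion Hexim1 differed by 0.04 over both fractions (SE 0.17, adjusted p = 0.908). The LSK pairs were 0.32 and 0.30 and the MEP pairs -0.12 and -0.35, so the fractions ran in opposite directions. The difference within LSK cells was 0.31 (SE 0.20, adjusted p = 0.692) and within MEP -0.23 (SE 0.20, adjusted p = 0.576). The test of one against the other gave -0.54 (95% interval -1.26 to 0.18, adjusted p = 0.9996), which does not part them. In MEP the arrays with and without Ezh2 did not overlap for Brd2, Brd3, Ep300, Crebbp and Kmt2d, 5 of 7 members, where 46.5% of all genes showed such a separation. By the second probes of Brd2 and Kmt2d these MEP arrays did overlap. Between MEP and LSK cells Hexim1 differed by -0.36 (SE 0.17, adjusted p = 0.129), lower in 3 of 4 pairs. Without the JAK2V617F MEP array this was -0.49 with an adjusted p of 0.0436, the only setting tried in which a member passed the threshold.

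**Figure D4:**
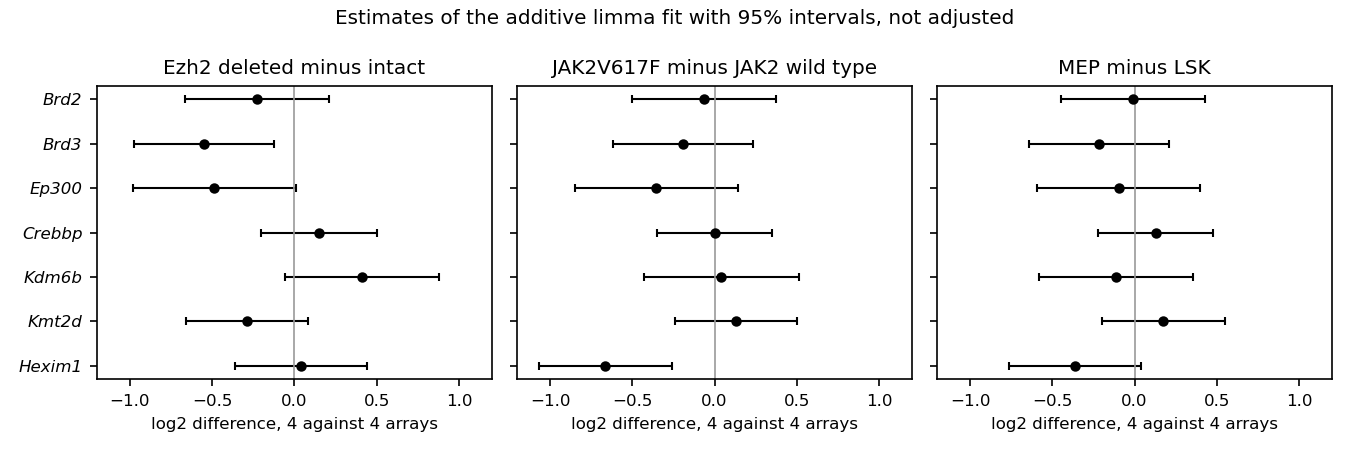
Log2 differences of the additive limma fit (x axis) with 95% intervals, not adjusted for the number of genes, for the 7 measured genes (y axis). The intervals leave 0 for Brd3 with Ezh2 deletion (-0.98 to -0.13) and Hexim1 with JAK2V617F (-1.07 to -0.26), and for no member between MEP and LSK.

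No member was separated between 4 MEP and 4 LSK arrays, against 36% of all genes. The 95% intervals for MEP against LSK were within -0.76 and 0.55 for the 7 members, while 5406 genes passed the threshold.

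The double mutant was compared with WT within each fraction on single arrays, with no test. In LSK cells 0 of 7 members were at least 2-fold apart, against 8.91% of all genes (1174). Kdm6b was 0.83 higher and Brd3 was 0.70 lower on the log2 scale, and these were the 2 of 7 members at least 1.5-fold apart, against 25.6% of all genes. In MEP 1 of 7 members was at least 2-fold apart, against 14.1% of all genes (1865). It was Ep300, whose signal was 2.15-fold lower at a log2 difference of -1.10. Brd3 differed by -0.78 and Hexim1 by -0.78, where the median of all genes was -0.19. The double mutant MEP array had the lowest value of all 8 for Brd2, Brd3, Ep300 and Hexim1. The share of all genes lowest on it was not counted, so this is not read as a trait of the members. Its median log2 level over all probes was -3.62, against -4.15 to -3.92 on the other arrays. Its correlation with the other MEP arrays was 0.966 to 0.975.

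Whether the Ezh2 difference depended on JAK2V617F was tested by the interaction. It was negative for 7 of 7 members and for 57.0% of all genes, with medians of -0.29 and -0.08, which means lower signal in the double mutant than the sum of both single differences. Brd2 had an interaction of -0.60 (SE 0.34, adjusted p = 0.972) and Ep300 one of -0.58 (SE 0.40, adjusted p = 0.972). The 7 interactions share the same 8 arrays, so their common sign is 1 observation. limma called 0 of 13183 genes (0%), with 456 at an unadjusted p under 0.05 and none of these a member.

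The members also resembled one another to different degrees. After the mean of each cell type was subtracted, the Pearson correlation over the 8 arrays was 0.90 between Brd2 and Ep300, 0.82 between Brd3 and Ep300, and 0.76 between Brd2 and Kmt2d. Kdm6b and Brd3 had -0.63, and Ep300 and Crebbp -0.21. These points share 1 slide, and with 1 array per group the double mutant MEP array weighs on each, so they are descriptions. Among 10468 genes well above background on all arrays, the closest pattern to Brd2 was that of Unc45a (0.998) and the closest to Brd3 that of Tbc1d10b (0.993). Dhx33 was closest to Ep300 (0.995), Arhgap17 to Crebbp (0.970), Tle2 to Kdm6b (0.972), Kri1 to Kmt2d (0.978) and Rsad2 to Hexim1 (0.991). The next were Pbx4 for Brd2 (0.993), Eya3 for Brd3 (0.992), Zhx1 for Ep300 (0.994), Txndc16 for Crebbp (0.958), Cldnd1 for Kdm6b (0.955), Mbnl1 for Kmt2d (0.975) and Plekho2 for Hexim1 (0.988).

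The other genes of the same machinery were taken from 7 lists of 73 genes, of which 72 were tested. With Ezh2 deletion 0 rose and 1 fell, Uty. With JAK2V617F 0 rose and 0 fell. Uty, the Y-linked relative of the H3K27 demethylase Kdm6a, read -2.87, -2.91, -2.70 and -2.17 on the arrays with intact Ezh2 and -6.14, -5.68, -4.89 and -5.21 on those without, in each case in LSK cells with normal JAK2, LSK cells with JAK2V617F and then MEP likewise. It was well above background on 3 of the 4 arrays with intact Ezh2 and on none without, so its signal was at least 1.72-fold lower after deletion (adjusted p = 0.00330), taking the lowest signal well above background as the limit on each array. Its difference cannot be told apart from the sex of the marrow. Kdm6a, the X-linked H3K27 demethylase, read -0.71, -0.81, -0.83 and -0.60 with intact and -0.06, -0.23, -0.15 and -0.48 with deleted Ezh2, in the same order. It was higher in 4 of 4 pairs and its groups did not overlap, with a difference of 0.51 (SE 0.16, adjusted p = 0.207). Kdm6a escapes X inactivation, and sex and Ezh2 deletion cannot be told apart here.

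Of the 72 genes 56 had a negative Ezh2 difference, with a median of -0.21 against -0.10 for all genes, of which 60.4% were negative. Without the double mutant MEP array 56 of 72 were negative, with a median of -0.17 against -0.06. Quantile normalization gave 48 of 72 and medians of -0.15 and -0.07. The 10 SWI/SNF subunits, the remodellers that oppose polycomb, were negative in 10 of 10 with a median of -0.29, and Smarcd2 had the largest size at -0.50 (adjusted p = 0.238). Of 18 COMPASS and trithorax genes 14 were negative with a median of -0.31, with Men1, the scaffold of the Kmt2a complex, at -0.48 (adjusted p = 0.243). Of 11 genes of the 7SK and P-TEFb machinery, the partners of Hexim1, 8 were negative with a median of -0.26. Supt5, an elongation factor that P-TEFb phosphorylates, differed by -0.38 and Mepce, the 7SK capping enzyme, by -0.33. Of 10 other acetyl-lysine readers 8 were negative with a median of -0.17. Cecr2 was higher by at least 1.0488-fold (adjusted p = 0.205), being well above background on 3 of the 4 deleted arrays and on none with intact Ezh2. The 11 other acetyltransferases had a median of -0.15 and the 10 genes of super elongation complexes one of -0.12.

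With JAK2V617F 53 of 72 were negative, with a median of -0.13 against 0.01 for all genes, and 44 of 72 were negative without the double mutant MEP array. Brpf3, a reader of an acetyltransferase complex, differed by -0.80 (adjusted p = 0.340) and the coactivator Ncoa3 by -0.48 (adjusted p = 0.369). The 11 acetyltransferases had the lowest list median at -0.24. Within the 7SK list Hexim2, the paralogue of Hexim1, differed by 0.24 (SE 0.17, adjusted p = 0.643), opposite in sign to Hexim1, and Larp7, which stabilizes 7SK, by -0.24 (SE 0.16). The median of the 11 genes of that list was -0.04.

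Between MEP and LSK cells 8 of the 72 were higher and 7 lower past the threshold, in contrast to 0 of 7 members, where 41% of all genes passed. Ell2, an elongation factor, was higher in MEP by 2.14 (SE 0.28, adjusted p = 8.1e-04) and Mllt3, a reader of acylated lysine, by 1.06 (SE 0.21, adjusted p = 0.00563). Eaf2, an elongation cofactor, differed by -0.92 (adjusted p = 0.00295). The remodeller subunits Smarca2 and Arid1b differed by -1.30 (adjusted p = 0.00349) and -1.02 (adjusted p = 0.00557). Kat8, which acetylates H4K16, was higher by 0.78 (adjusted p = 0.00646), and Kat6b and Ncoa3 differed by -0.73 and -0.86.

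**Figure D5:**
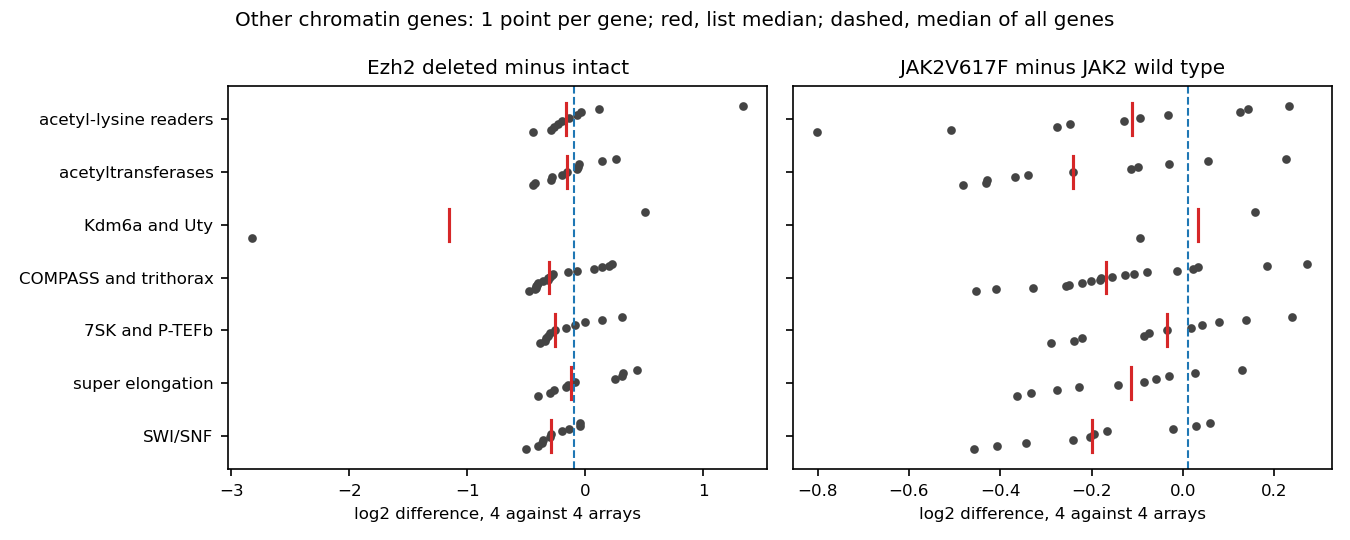
Log2 difference of 72 other chromatin genes (x axis, with a different span on each side) in 7 lists (y axis), with Ezh2 deletion on the left and JAK2V617F on the right, 1 point per gene. The red bars are list medians and the dashed line the median of all genes (-0.10 and 0.01). Uty, at -2.82 as measured, is the 1 gene past the threshold, and all 10 SWI/SNF subunits are below 0 with Ezh2 deletion.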

How the data were processed

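Scanner files of 8 arrays, 1 per group, gave the processed signal of each spot. These deposited intensity values were made with Feature Extraction 10.7.1.1, which subtracted background and detrended each array, per the file headers. The authors' deposited series table holds a linear ratio, which by its values is the processed signal over a factor per array near the 75th percentile. It served as an alternative.

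After non-uniform spots were left out, the mean processed signal of each probe was divided by the 75th percentile over all non-control spots of its array and log2 transformed. That percentile had a signal of 219.7 to 369.0. Probe accessions were matched to symbols with a RefSeq table of GRCm38.p6, and 27509 of 55681 probes (49.4%) matched. The promoter windows are RefSeq's in the same build. A gene was its brightest probe by mean linear signal and was tested when well above background on 2 or more of the 8 arrays. This gave 13183 genes.

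limma 3.58.1 in R 4.3.3 fitted cell type, JAK2 and Ezh2 additively (4 matched pairs each), effects nested in cell type (2 pairs, spread pooled over both), their difference and the interaction of both genotypes. p-values were adjusted by Benjamini-Hochberg over all genes, with a threshold of 0.05. No group has a replicate, so p-values measure only the spread between pairs, and the number of arrays limits the precision. Members and lists were chosen with earlier results of these data known. Named were all members, of the lists those past the threshold with a genotype and up to 4 of the largest differences, Kdm6a, Uty, Ezh2 and Jak2, and per member the 2 genes of most like pattern. Some genes of the lists are not reported here by name. The fits were tested on simulated data. Alternatives were quantile normalization, normexp background correction, the series table, other filters, other probes or their mean, non-uniform spots kept, a variance prior with a trend, a common floor, no X and Y genes, an adjusted p of 0.10, a 1.5-fold threshold, and each array left out.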

Additional observations from a re-analysis of the deposited data

How the results depend on the processing

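No member passed the threshold under the alternatives tried in any of the 10 comparisons, except 1 (Hexim1 between MEP and LSK cells, adjusted p = 0.0436) without the JAK2V617F MEP array. Leaving out 1 array gave 0 to 1 members there. With 1.5-fold in place of 2-fold, 2 of 7 members were past the fold between double mutant and WT LSK cells (25.6% of all genes) and 3 of 7 in MEP (37.9% of all genes). The Ezh2 differences of Brd3 (-0.62 to -0.45, without 1 array -0.65 to -0.43) and Ep300 (-0.56 to -0.27, without 1 array -0.64 to -0.29) and the JAK2V617F difference of Hexim1 (-0.68 to -0.60, without 1 array -0.79 to -0.56) kept their direction under every alternative. Kdm6b with Ezh2 deletion in LSK cells kept it too (0.79 to 0.94, and 0.61 to 0.99 without 1 array). Their adjusted p was 0.139 to 0.463 for Brd3, 0.193 to 0.592 for Ep300 and 0.105 to 0.594 for Hexim1.

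Smaller values turned direction, and the cause was not tested. With JAK2V617F the mean of all probes gave 0.093 for Brd2 and -0.22 for Kmt2d, the second Brd2 probe gave 0.25 and the other Kmt2d probes -0.54 and -0.26 (the first of them not above background on any MEP array), and Crebbp was -0.00718 with normexp and -0.080 with quantile normalization. Between MEP and LSK cells the mean of all probes gave 0.047 for Brd2 and -0.21 for Kmt2d, the second Brd2 probe 0.11, another Brd3 probe 0.055, that dimmest Kmt2d probe -0.85 as measured, normexp 0.063 for Ep300 and quantile normalization -0.090 for Crebbp. Kdm6b with Ezh2 deletion in MEP was -0.076 with normexp and -0.010 in the series table. Leaving out 1 array gave, with Ezh2 deletion, -0.059 to 0.17 for Hexim1, -0.35 to 0.036 for Ep300 in LSK cells and -0.071 to 0.11 for Kdm6b in MEP. With JAK2V617F it gave -0.21 to 0.060 for Brd2, -0.086 to 0.077 for Crebbp and -0.10 to 0.19 for Kdm6b. Between MEP and LSK cells it gave -0.16 to 0.11 for Brd2, -0.29 to 0.067 for Ep300 and -0.25 to 0.036 for Kdm6b.

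Of all genes, 32 (quantile normalization) to 223 (adjusted p under 0.10) were called with Ezh2 deletion and 12 to 102 without 1 array, and 16 to 120 with JAK2V617F and 0 to 42 without 1 array. Within a cell type and for the interactions the counts ran from 0 to 231, and from 0 to 399 without 1 array. Quantile normalization moved the median of all genes between MEP and LSK cells from 0.12 to 0.01. The design had 1 array per group, 1 slide and Ezh2 deletion confounded with sex. The 95% intervals are not adjusted for the number of genes, so they give the precision of each difference and not the size needed to pass the threshold.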
